A study of Mus musculus with 95 samples.

Results

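The miRNAs described here are mir-320a, mir-484, mir-877 and mir-1224, whose precursors reach Dicer without being cut by Drosha. They were taken as 4 entries of a deposited table of small RNA counts with 1881 entries, of which 440 had a count in any library. The entries carry only identifiers, MI0000542 (mir-320a), MI0002468 (mir-484), MI0005561 (mir-877) and MI0003764 (mir-1224). These names came with the choice of members and not from the deposited files, so the label of the group could not be checked against names in the data. The members were chosen by name with results of these data in view, since mir-320a had been selected on its change in the striatum of knock-in mice of the neo-intact line. The values of that contrast are therefore given as a description, with no test. Which values were in view when mir-484, mir-877 and mir-1224 were chosen is not recorded.

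The libraries came from 32 mice aged 6 months on a C57BL6/J background. Knock-in (KI) mice were heterozygous for zQ175, an allele of the mouse huntingtin gene with an expanded CAG repeat that is used to model Huntington's disease. In the neo-deleted line (CHDI-81003019) the labels mark the KI mice as Z_Q175 (neo-), and in the neo-intact line (CHDI-81003003) as Z_Q175, with the neomycin resistance cassette kept. Each line had its own wild type (WT) littermates, housed with the KI mice. Left striatum, the left lobe of the liver and left cortex were sampled, with 8 animals (4 of each sex) per line, genotype and tissue, except for 7 neo-deleted KI striata. These are bulk tissues, so fewer cells of a type and less RNA per cell cannot be told apart.

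In the usual pathway, the nuclear Microprocessor complex of Drosha and DGCR8 cuts a hairpin out of a long primary transcript, and Dicer then cuts the hairpin to a short duplex that is loaded onto an Argonaute protein. The precursors of miR-320 and miR-484 skip the first cut because the hairpin itself starts at the transcription start site: it carries a 5′ cap and is exported through exportin-1. The precursors of miR-877 and miR-1224 are mirtrons, short introns that are spliced out, debranched and folded into a hairpin for Dicer.

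The mouse sequences of the 3 miRNAs listed in the reference table are shown first, because they carry the feature that sets the members apart. All come from RefSeq on GRCm38.p6, are written 5′ to 3′, and have the mature arms in capitals.
Mir484: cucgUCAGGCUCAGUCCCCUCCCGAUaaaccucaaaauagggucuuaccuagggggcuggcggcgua
Mir877: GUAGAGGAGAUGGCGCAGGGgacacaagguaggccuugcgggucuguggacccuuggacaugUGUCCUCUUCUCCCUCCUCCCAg
Mir1224: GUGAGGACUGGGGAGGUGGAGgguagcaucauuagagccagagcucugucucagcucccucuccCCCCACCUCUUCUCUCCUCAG

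Both mirtron hairpins begin with GU and end with AG, the bases at the ends of most introns, while the Mir484 hairpin begins with CU and ends with UA. Mir877 lies at chr17:35960730-35960814 on the minus strand. In the GENCODE M21 annotation of GRCm38 it is, base for base, the whole of intron 12 of Abcf1 transcript 201, on the same strand. Mir1224 lies at chr16:20604452-20604536 on the plus strand. It is exactly a whole intron of Vwa5b2 in 4 of 4 annotated transcripts that hold it, for example intron 22 of transcript 202. Mir484 lies at chr16:14159626-14159692 on the plus strand and fills no intron. It overlaps the edge of exon 2 of Marf1 transcript 202, which is annotated on the opposite strand.

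The mature miRNAs are shown next with the seed, bases 2 to 8 that pair with target RNAs, in capitals.
mmu-miR-484: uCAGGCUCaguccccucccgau
mmu-miR-877-5p: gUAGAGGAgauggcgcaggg
mmu-miR-877-3p: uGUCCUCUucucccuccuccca
mmu-miR-1224-5p: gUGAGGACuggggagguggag
mmu-miR-1224-3p: cCCCACCUcuucucuccucag
No seed is shared among these miRNAs of mir-484, mir-877 and mir-1224: each of these 5 seeds occurs in 1 of the 1738 mature mouse entries of the table, its own.

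The deposited table gives 1 value per hairpin entry, so the arms cannot be told apart. Dividing counts by FPKM gave implied entry lengths of 82 nt for mir-320a, 79 nt for mir-484, 86 nt for mir-877 and 85 nt for mir-1224. The RefSeq mouse hairpins measure 67 nt for Mir484 and 85 nt for both Mir877 and Mir1224. The entries of mir-484 and mir-877 thus differ in length from the mouse hairpins printed above, which may not be the sequences that were counted. The species of the entries is not given in the sources used here, and counts cover only reads that were assigned to them.

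Total counts per library ran from 74540 to 496035, with a median of 124029. The library names hold a number after the letter L, whose meaning the labels do not give, and most entries move with it in striatum and cortex. Libraries numbered L8 (26) were deeper than the others (69), with median totals of 419439 and 117174. Striatum was split between L8 (14 libraries) and L7 (17), cortex between L8 (12), L1 (19) and L2 (1), and liver between L3 (7), L2 (18) and L1 (7). Levels are therefore compared inside an L number, or in a model that holds it as a factor. Known tissue markers could not be looked up, because the files do not pair identifiers with names, so the tissue labels were not checked against the data.

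Per length and over all libraries, mir-320a had the highest median of the 4 miRNAs, followed by mir-484, mir-877 and mir-1224, but in cortex L8 that of mir-484 was above that of mir-320a. The median over all libraries was 10971 FPKM (fragments per kilobase of entry and 1000000 counts) for mir-320a, 4690 FPKM for mir-484 and 1580 FPKM for mir-877. mir-320a had between 63 and 403 counts in each of the 95 libraries (median 139), and mir-484 between 12 and 351 (median 47). mir-877 had between 0 and 117 counts (median 22) and was seen in 93 libraries. By mean count over libraries, mir-320a ranked 102 of all entries, mir-484 ranked 121 and mir-877 ranked 166, so none was among the leading small RNAs.

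The entry of the other mirtron held almost no counts. mir-1224 had 5 counts in the whole series of 19014092, 1 in each of 5 libraries: cortex of neo-intact KI M3 and neo-intact WT M1, M2 and F4, and striatum of neo-intact WT M1. In those 5 libraries mir-877 had between 16 and 75 counts. Over all liver libraries mir-1224 had 0 of 3362685 counts, which allows up to 0.892 counts per 1000000 (CPM), and counting error is all that this limit covers. This entry entered no test. Whether mouse mir-1224 reads could be assigned to it was not tested.

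mir-320a estimates need care because some reads were divided between entries. Its estimate was not whole in 45 of 95 libraries, at a tolerance of 0.005, while those of mir-484, mir-877 and mir-1224 were whole in every library. Candidates were 10 entries whose estimates were broken only in libraries where that of mir-320a was broken. Those broken in the most libraries were MI0003776, MI0003839 and MI0016761. Adding all 3 to mir-320a gave a whole number in 32 of the 45 libraries. They held 60.3, 38.6 and 20.1 counts in all, or 0.39%, 0.25% and 0.13% of the 15460.8 counts of mir-320a. Beside mir-320a these entries held few counts. Entries also broken in other libraries were not candidates, so reads shared with them are not covered.

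The order of the tissues differed between the members. On the FPKM scale, the median level of mir-320a was 8294 in striatum L8, 22946 in striatum L7, 13022, 12810 and 12508 in liver L3, L2 and L1, 5296 in cortex L8 and 9677 in cortex L1. That of mir-484 was 7672 in striatum L8, 7373 in striatum L7, 2945, 3132 and 3443 in liver L3, L2 and L1, 5459 in cortex L8 and 4423 in cortex L1. For mir-877 it was 2080 in striatum L8, 2880 in striatum L7, 288, 459 and 367 in liver L3, L2 and L1, 1256 in cortex L8 and 1908 in cortex L1. On this scale mir-484 and mir-877 thus had their highest medians in striatum and their lowest in liver. These medians pool KI and WT libraries. The order is read across L numbers, with which mir-877 moved within striatum and cortex, as given below. For mir-484, liver against cortex depended on the scaling, as given below. mir-320a did not follow that order: its liver medians stood above those of both cortical sets and between those of the striatal sets. Striatum and liver share no L number, so no test was made between them.

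**Figure D1:**
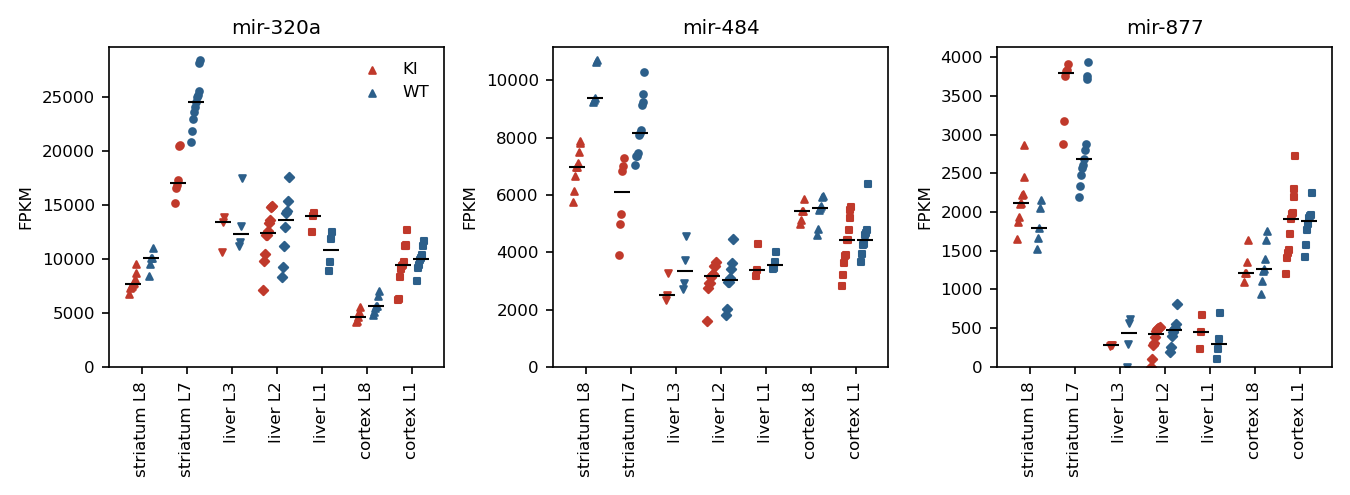
FPKM of mir-320a, mir-484 and mir-877 in each library (points; red KI, blue WT), by tissue and L number on the x axis, with medians as bars. mir-877 is at 816 FPKM or less in every liver library, while mir-320a is high in striatum L7 and low in cortex L8.

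Striatum could be set against cortex inside L8, in WT mice (5 striatal and 7 cortical libraries, both lines). Here and below, levels are CPM scaled by trimmed means (TMM CPM), and an entry is said to be called where edgeR's quasi-likelihood test gives a Benjamini-Hochberg adjusted p under 0.05 over all entries tested. mir-484 had 713, 714, 725, 782 and 799.6 CPM in striatum, against 379 to 515 CPM in cortex. Every striatal library lay above every cortical library. The log2 difference was 0.85 (SE 0.12, adjusted p = 0.000355, edgeR). mir-320a had 641, 752, 779, 808 and 885 CPM in striatum, against 378 to 604 CPM in cortex. These ranges did not overlap either, and the log2 difference was 0.55 (SE 0.16, adjusted p = 0.0168, edgeR). That call ended without cortical neo-intact WT M2 (0.37, adjusted p = 0.059, edgeR) or striatal neo-intact WT M3 (0.46, adjusted p = 0.0623, edgeR). Striatal neo-intact WT M3 was also part of the contrast on which mir-320a had been selected. Here and below, the share of all entries tested whose ranges did not overlap between groups is not given.

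mir-877 overlapped between these tissues, with 122 to 178 CPM in striatum against 77.9 to 159 CPM in cortex. Its log2 difference of 0.40 (SE 0.23) was not called (adjusted p = 0.183, edgeR). Adding the KI libraries of L8 gave 0.50 for mir-877, which was called (adjusted p = 0.00147, edgeR). The added libraries include neo-intact KI striata, whose values were in view when the members were chosen. In all, 2 of the 3 members tested were called higher in striatum, where 41.3% of the 218 entries tested were called in either direction and 20.6% were called higher.

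Liver could be set against cortex inside L1, in WT mice (4 liver and 8 cortical libraries). mir-877 had 9.92, 22.2, 35.5 and 68.2 CPM in liver, against 109 to 183 CPM in cortex. No liver library reached the lowest cortical library. The log2 difference was -2.12 (SE 0.36, adjusted p = 0.000131, edgeR), although the liver values rest on few counts: over the 7 liver libraries of L1, both genotypes, there were between 1 and 6 counts each. mir-484 had 307 to 355 CPM in liver against 266 to 452 CPM in cortex, and was not called (log2 -0.07, SE 0.16, adjusted p = 0.673, edgeR). mir-320a had 818, 913, 1090 and 1152 CPM in liver, against 610 to 924 CPM in cortex. It was called higher in liver (log2 0.39, SE 0.13, adjusted p = 0.0159, edgeR). The call ended without liver neo-deleted WT F3 (0.28, adjusted p = 0.0619, edgeR) or liver neo-intact WT M2 (0.39, adjusted p = 0.0523, edgeR).

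The liver and cortex contrast moved with the scaling. In it 92.6% of 188 entries were called, and the median log2 difference of all entries was -1.25 with TMM scaling, -0.58 with DESeq2 size factors and -1.51 with total counts. A change of scaling moves all entries about alike, so distances from that median are nearly fixed in advance. They were 1.64 for mir-320a, 1.18 for mir-484, and between -0.88 and -0.86 for mir-877. With DESeq2 size factors mir-484 was therefore called higher in liver (0.61, adjusted p = 0.00269, edgeR), and with total counts mir-320a was not called (0.13, adjusted p = 0.345, edgeR). mir-877 was called lower in liver under all 3 scalings.

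Within a tissue, mir-320a and mir-877 moved with the L number while mir-484 did not. In striatum, mir-320a was lower in L8 than in L7 by a log2 difference of -1.52 (SE 0.07). mir-877 was also lower, at -1.03 on the same scale (SE 0.10), and the log2 difference of mir-484 was 0.00 (SE 0.08). These values hold the neo-intact striata of the contrast on which mir-320a had been selected. KI and WT were spread unevenly over L7 and L8 there, so no test of the members between these L numbers is given. In cortex, L8 against L1 gave log2 differences of -1.06 for mir-320a (SE 0.12, adjusted p = 1.88e-08, edgeR) and -0.78 for mir-877 (SE 0.14, adjusted p = 1.29e-05, edgeR). For mir-484 it was -0.12 (SE 0.10, adjusted p = 0.263, edgeR). Calls were common here: 84.6% of entries were called in striatum and 70.4% in cortex. The median of all entries was 0.17 in striatum with TMM scaling and 0.46 with total counts, under which mir-484 stood at 0.28. Relative to that median mir-484 stood at -0.17 with TMM scaling and -0.18 with total counts, a distance that scaling hardly changes. In liver, neither mir-320a nor mir-484 was called between L3 or L2 and L1 (edgeR called 2.29% and 0% of 131 entries, with 23 and 19 at an unadjusted p under 0.05, and DESeq2 called 3 and 2). Because KI and WT were spread unevenly over the L numbers, this pattern touches every genotype comparison that leaves the number out. In the neo-intact striatum, mir-320a had a log2 change of -1.10 without the L number in the model and -0.45 with it.

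In the striatum of neo-deleted KI mice mir-484 was lower and mir-877 was higher than in WT littermates, and the change of mir-320a was not called. Of the 3 members tested, 2 were called, against 15.4% of the 188 entries tested (8.51% higher and 6.91% lower, or 16 and 13 entries). The split moved with the scaling: DESeq2 size factors gave 26 higher and 12 lower, and total counts gave 14 higher and 22 lower. The median log2 change of all 188 entries was 0.03. Whether values of this contrast were in view when mir-484 and mir-877 were chosen is not recorded. Their p-values here may therefore not be independent of the choice.

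The capped-hairpin miRNA mir-484 showed the clearest difference. Inside L7 it had 350, 465 and 588 CPM in neo-deleted KI striatum, against 635, 697, 752 and 766 CPM in WT. Inside L8 it had 420.1, 497, 517.5 and 557 CPM in KI, against 634.5, 661, 698 and 749 CPM in WT. No KI library reached the lowest WT library sharing its L number. The means were 468 ± 119 CPM in KI and 713 ± 59.5 CPM in WT in L7 (SD, n = 3 and 4). In L8 they were 498 ± 57.5 CPM in KI and 686 ± 49.6 CPM in WT (SD, n = 4 each). In the model of both L numbers mir-484 changed by -0.53 on the log2 scale (SE 0.10, adjusted p = 0.000118, edgeR), about 0.692 of the WT level. Each L number alone gave a similar size: -0.54 in L8 (adjusted p = 0.00379, edgeR) and -0.57 in L7, where the call was lost (adjusted p = 0.076, edgeR). Leaving out any 1 of the 15 libraries left the call in place (-0.59 to -0.45, adjusted p at most 0.00184, edgeR).

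The mirtron mir-877 changed in the other direction, with less margin. Inside L7 it had 280, 300.2 and 349 CPM in neo-deleted KI striatum, against 227, 232.5, 238 and 347 CPM in WT. Inside L8 it had 145, 163, 197 and 228 CPM in KI, against 109, 136.5, 158.1 and 158.2 CPM in WT. The groups overlapped in both: 1 of 3 KI libraries in L7 and 3 of 4 in L8 lay above every WT library. The log2 change was 0.36 (SE 0.12, adjusted p = 0.0429, edgeR), about 1.28 times the WT level. The call was lost when any 1 of 7 libraries was left out, at adjusted p of 0.0721 to 0.162 (edgeR). These were KI M2 and F2 and WT F1, F2, F3, M3 and M4. It was also lost with total counts in place of TMM scaling (0.29, adjusted p = 0.107, edgeR), with limma on log2(FPKM + 1) (0.28, adjusted p = 0.155, limma), and inside L7 (0.27, adjusted p = 0.583, edgeR) or L8 (0.39, adjusted p = 0.104, edgeR).

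The other capped-hairpin miRNA, mir-320a, was lower in KI on average without being called. Inside L7 it had 1465, 1559 and 1907 CPM in neo-deleted KI striatum, against 1758, 1952, 2130 and 2506 CPM in WT. Inside L8 it had 578, 628, 659 and 708 CPM in KI, against 572, 668, 729 and 807 CPM in WT. The groups overlapped in both, and in L8 no KI library lay below all WT libraries. The log2 change was -0.21 (SE 0.08, adjusted p = 0.0942, edgeR). It was called with total counts (-0.28, adjusted p = 0.0114, edgeR), with limma on log2(FPKM + 1) (-0.27, adjusted p = 0.0116, limma) and without KI F4 (-0.25, adjusted p = 0.0481, edgeR) or WT F3 (-0.26, adjusted p = 0.0364, edgeR).

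**Figure D2:**
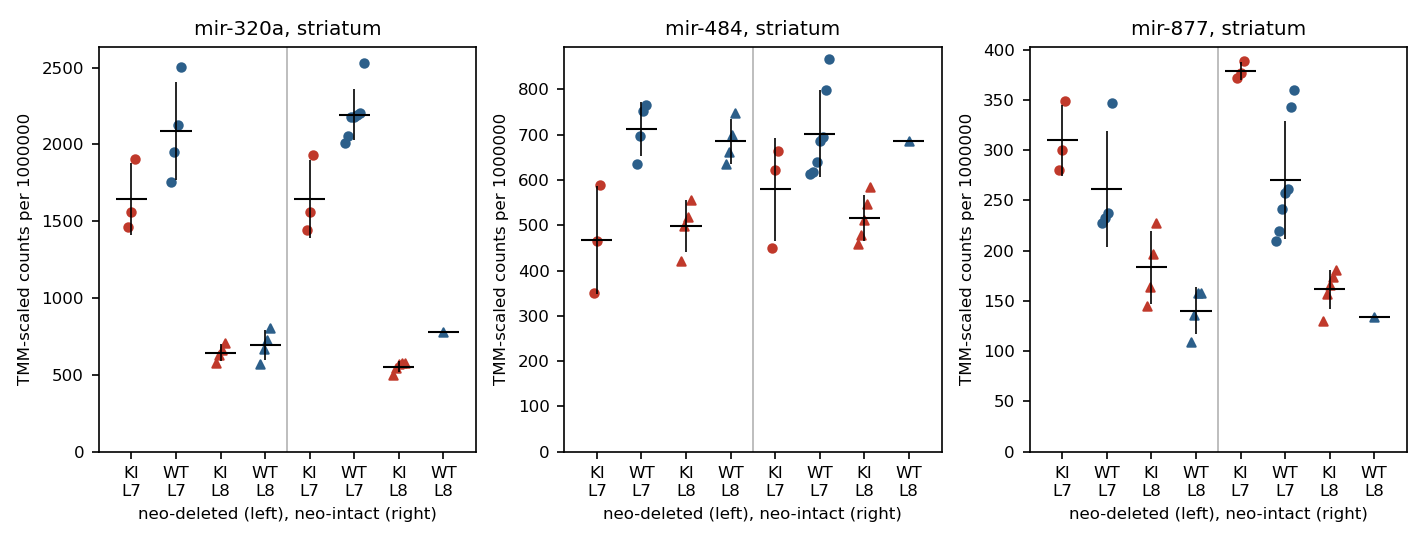
TMM-scaled counts per 1000000 of mir-320a, mir-484 and mir-877 in every striatal library (red KI, blue WT; circles L7, triangles L8), with the neo-deleted line left of the grey line and the neo-intact line right of it. Horizontal bars are means and vertical bars are SD; KI libraries lie below WT libraries for mir-484 in the neo-deleted line, and mir-320a and mir-877 step down in L8 in both genotypes.

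In the neo-intact line the same 3 miRNAs are described without a test. mir-320a had 1442, 1561 and 1932 CPM in KI striatum inside L7, against 2010 to 2533 CPM in WT (median 2182, n = 7). Inside L8 it had 501, 543, 573, 576 and 578 CPM in KI, against 777 CPM in the only WT library. All 8 KI libraries lay below the WT libraries of their L number. The log2 change was -0.45 (SE 0.09).

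mir-484 had 449.9, 622 and 665 CPM in neo-intact KI striatum inside L7, against 613 to 868 CPM in WT (median 685, n = 7). Inside L8 it had 458, 479, 512, 547 and 585 CPM in KI, against 686 CPM in the WT library. KI and WT overlapped in L7 and not in L8. The log2 change was -0.39 (SE 0.10). mir-877 had 371.5, 376 and 389 CPM in KI inside L7, against 209 to 359.6 CPM in WT (median 258, n = 7). Inside L8 it had 130.5, 157, 166, 174 and 180.5 CPM in KI, against 134 CPM in the WT library. All 3 KI libraries of L7 and 4 of 5 of L8 lay above the WT libraries, and the log2 change was 0.35 (SE 0.13). Only 1 WT library of this line had L8, so the comparison inside L8 rests on it.

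The KI effects of the lines are set side by side as a difference. The neo-deleted effect minus the neo-intact effect was 0.24 for mir-320a (SE 0.12), -0.14 for mir-484 (SE 0.14) and 0.01 for mir-877 (SE 0.18) on the log2 scale. These differences hold the neo-intact values that were in view when the members were chosen, so no test is given. WT striata of the lines had log2 differences, neo-deleted over neo-intact, of -0.11 for mir-320a, 0.00 for mir-484 and 0.03 for mir-877. They hold neo-intact WT values of the same contrast, so no test of the members is given. Between the WT striata edgeR called 0% of the 188 entries, with 8 at an unadjusted p under 0.05.

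The ratio of mir-484 to mir-877 counts within a library does not depend on any scaling. It was chosen after these values had been seen and is given without a test. In neo-deleted striatum inside L7 there were 1.25, 1.55 and 1.69 mir-484 counts per mir-877 count in KI, against 1.83 to 3.31 in WT. Inside L8 the ratio was 1.85 to 3.42 in KI, against 4.01 to 6.41 in WT. In neo-intact striatum inside L7 it was 1.195, 1.675 and 1.71 in KI, against 2.02 to 3.37 in WT. Inside L8 it was 2.54 to 4.19 in KI, against 5.13 in the WT library. In striatum the ratio of each KI library stayed under those of all WT libraries with the same line and number. The ratio sets a member lower in KI against a member higher in KI, so this separation largely restates those changes. The share of other pairs of entries that separate in this way is not given. In cortex the ratio overlapped between genotypes: inside L8 of the neo-deleted line it was 3.05 to 4.17 in KI, against 3.19 to 4.07 in WT. Inside L1 it was 2.24 to 3 in KI, against 1.86 to 4.15 in WT of the neo-deleted line. In the neo-intact line it was 0.96 to 3 in KI, against 1.875 to 2.47 in WT.

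**Figure D3:**
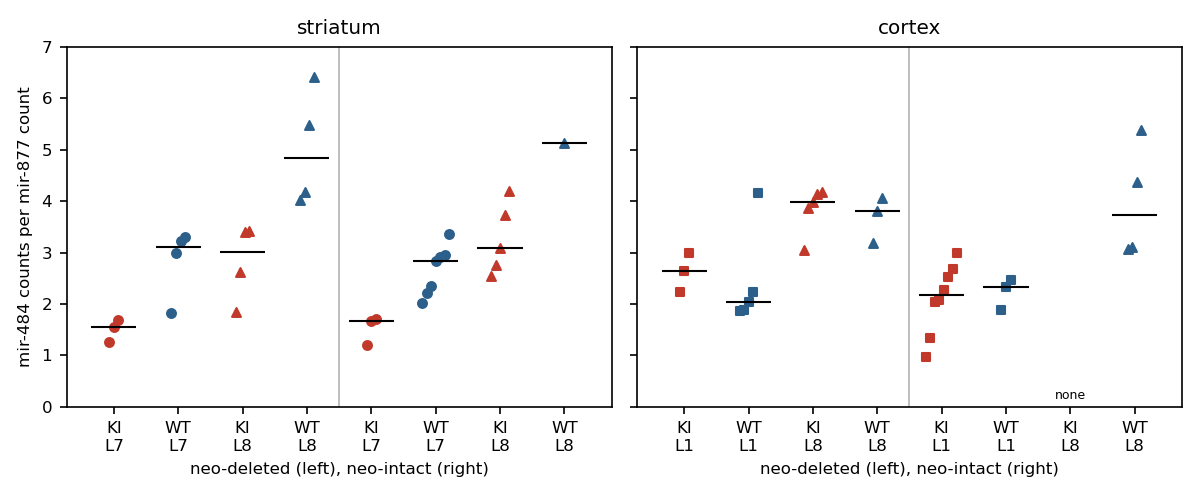
Counts of mir-484 per count of mir-877 in each library of striatum (left) and cortex (right), by line, L number and genotype (red KI, blue WT), with medians as bars. In striatum all KI points lie below the WT points of the same line and L number, and in cortex they overlap; no neo-intact KI cortex library had L8.

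In cortex no member was called in either line. The neo-deleted KI changes were -0.21 for mir-320a (SE 0.14, adjusted p = 0.853, edgeR), 0.16 for mir-484 (SE 0.11, adjusted p = 0.853, edgeR) and 0.09 for mir-877 (SE 0.16, adjusted p = 0.859, edgeR). The neo-intact KI changes were 0.04 for mir-320a (SE 0.16, adjusted p = 0.932, edgeR), -0.25 for mir-484 (SE 0.13, adjusted p = 0.47, edgeR) and -0.01 for mir-877 (SE 0.18, adjusted p = 0.984, edgeR). edgeR called 0% of the 186 entries in either line, with 9 at an unadjusted p under 0.05 in the neo-deleted and 15 in the neo-intact line, and DESeq2 called 0 entries. mir-484 was the member with the clearest difference in neo-deleted striatum. In neo-deleted KI cortex inside L8 it had 339, 377.5, 377.6, 394 and 422 CPM, against 296, 352 and 424.5 CPM in WT. Inside L1 it had 416, 463 and 504 CPM in KI, against 305 to 515 CPM in 5 WT libraries. Every neo-deleted KI library lay within the WT range of its L number. In the neo-intact line all KI cortices had L1, and mir-484 stood at 243 to 412 CPM against 360.3, 371 and 405.5 CPM in WT, and 5 of the 8 KI libraries lay below all 3 WT libraries. mir-320a had 293.9, 307, 352, 393 and 410.3 CPM in neo-deleted KI cortex inside L8, against 339, 514 and 536 CPM in WT. Inside L1 it had 540.5, 903 and 1009 CPM in KI, against 684 to 972.5 CPM in WT. The ranges overlapped in both L numbers, with 2 of 5 KI libraries of L8 below all WT libraries. mir-877 had 81.2 to 129 CPM in neo-deleted KI cortex inside L8, against 77.9, 104 and 110.5 CPM in WT. Inside L1 it had 154, 186 and 191 CPM in KI, against 124 to 179 CPM in WT. In neo-intact cortex inside L1, mir-877 had 120 to 253 CPM in KI, against 146 to 198 CPM in WT, so the KI range held the whole WT range. For mir-484 the neo-deleted effect minus the neo-intact effect was 0.41 in cortex (95% interval 0.04 to 0.78, unadjusted p = 0.0328, adjusted p = 0.476, edgeR), which was not called.

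In liver mir-320a and mir-484 passed the filter on low counts and neither was called. The neo-deleted KI change of mir-320a was 0.22 (SE 0.14, adjusted p = 0.988, edgeR), with 1076 ± 147 CPM in KI and 980 ± 141 CPM in WT inside L2 (SD, n = 6 and 4). The neo-intact change was -0.17 (SE 0.14, adjusted p = 0.774, edgeR), with 925.5 ± 207 CPM in KI and 1178 ± 352 CPM in WT inside L2 (SD, n = 4 each). For mir-484 the changes were 0.04 in neo-deleted (SE 0.18, adjusted p = 0.988, edgeR) and -0.18 in neo-intact mice (SE 0.18, adjusted p = 0.788, edgeR). edgeR called 0% of the 131 entries in either line, with 4 at an unadjusted p under 0.05 in the neo-deleted and 13 in the neo-intact line, and DESeq2 called 0 entries. mir-484 had 264.5 ± 21.4 CPM in neo-deleted KI liver and 239 ± 71.1 CPM in WT inside L2 (SD, n = 6 and 4). In neo-intact liver inside L2 it had 219 ± 53.1 CPM in KI and 256.5 ± 109 CPM in WT (SD, n = 4 each). Inside L2 both differences of mir-484 are smaller than the SD of the WT libraries. Inside L1 mir-320a had 1052 ± 75.8 CPM in neo-deleted KI liver and 814 ± 152 CPM in WT (SD, n = 2 and 3), and both KI libraries lay above all WT libraries. Between WT lines, neo-deleted over neo-intact, liver gave -0.28 for mir-320a (SE 0.15, adjusted p = 0.677, edgeR) and -0.06 for mir-484 (SE 0.18, adjusted p = 0.959, edgeR). mir-877 was left out by the filter, with 36 counts in neo-deleted KI livers and 32 in WT, and 19 in neo-intact KI livers and 24 in WT. Liver libraries held 0 to 7 counts of it each.

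**Figure D4:**
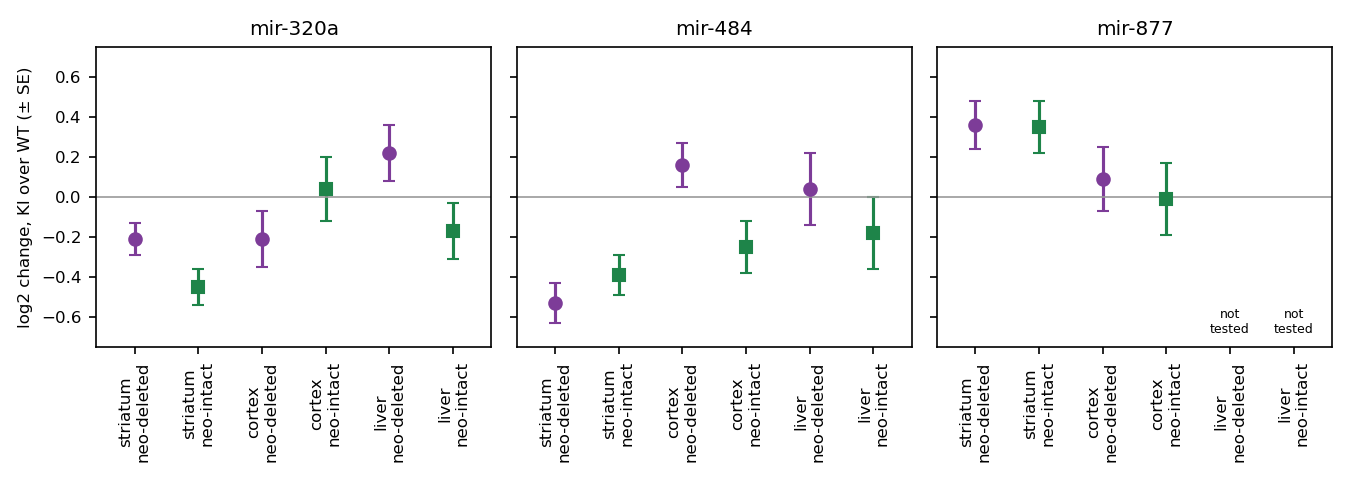
Log2 change of KI over WT with its SE for mir-320a, mir-484 and mir-877 in 3 tissues, from models with sex and the L number (purple circles neo-deleted, green squares neo-intact). The striatal values of mir-320a and mir-484 lie below 0 and those of mir-877 above 0 in both lines, and mir-877 was not tested in liver.

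Across the 7 combinations of tissue and L number with more than 1 library, the members did not follow a common pattern. Pearson's r of their mean log2 CPM was 0.82 between mir-484 and mir-877, 0.06 between mir-320a and mir-484 and -0.17 between mir-320a and mir-877. These 7 points differ in depth and L number as well as in tissue, and r is a description of them. The entries most like mir-877 among 203 with a mean of at least 50 CPM were MI0000745 (r = 0.994), MI0000478 (0.976) and MI0000270 (0.971), where the median of all was 0.78. Those most like mir-484 were MI0000734 (0.899), MI0003667 (0.890) and MI0000261 (0.871), with a median of 0.57. Those most like mir-320a were MI0000108 (0.944), MI0000286 (0.943) and MI0000109 (0.942), with a median of -0.40. mir-320a thus ran against most entries over these 7 points, and the mirtron ran with most of them.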

How the data were processed

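Small RNA was sequenced from flash-frozen striatum, liver and cortex. The deposited tables hold estimated counts per entry, not scaled, and FPKM, both made by the authors; the software that the submitters' processing notes name is CASAVA 1.8.2 and the build mm10. The aligner and counting method are not given in the sources used here. A change in how reads shared between entries were divided would move mir-320a estimates.

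Estimated counts were rounded and fitted per tissue with edgeR 4.0.16 in R 4.3.3 (quasi-likelihood test, TMM scaling, filterByExpr with a minimum count of 10 and a minimum total of 15). Each model held 4 groups of line and genotype, sex and the L number. P-values were two-sided and Benjamini-Hochberg adjusted over all entries tested. SE is that of the log2 change and SD is over libraries. KI and WT libraries with the same replicate number are different animals. The members and lists were chosen with earlier results of these data known. Named entries are the 4 members, up to 3 entries that share reads with a member, and the 3 whose mean log2 levels correlate best with it. Lists of cell type markers and of other miRNAs of the class could not be applied, because no file pairs identifiers with names. Sequences are RefSeq's, and introns come from GENCODE M21. On simulated neo-deleted striatum data with 188 entries, 74.0% of log2 changes of 0.5 and 93.3% of log2 changes of 1 were called, and 4.2% of calls were false. Alternatives were DESeq2 1.42.0, other scalings and filters, limma 3.58.1 on log2 FPKM, models without sex or L number, 1 L number alone, and each library left out.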

Additional observations from a re-analysis of the deposited data

Results flagged for a closer look

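Of 36 sets of a member and a group, 2 held a library far from the others, and chance marks about 1 in 20 such sets. In neo-intact WT striatum, mir-320a stood at 777 CPM in M3, where the nearest of the other 7 libraries had 2010 CPM. M3 is the only library of that group with L8, and L8 libraries had lower mir-320a in every striatal group. In neo-deleted WT liver, mir-484 stood at 140 CPM in M1 (L2), where the nearest library had 237 CPM; without M1 the neo-deleted KI change of mir-484 in liver was -0.07 in place of 0.04, and neither was called.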

How the results depend on the processing

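Of 478 values for single members under alternatives other than a left-out library, 428 kept their direction and their side of the threshold or, where no test is given, moved by less than the spread between libraries; 29 changed sign, 11 lost and 5 gained a call, and 5 moved further. Without the L number, the untested neo-intact striatal changes moved to -1.10 for mir-320a and -0.11 for mir-877, and the lines' differences to 0.74 and 0.35. The number of members called in neo-deleted striatum, 2, became 1 with no filter, no sex term, no L number or inside L8, and 0 inside L7, because mir-877 and in L7 also mir-484 lost the call; it ran from 1 to 3 with 1 library left out. With total counts and with FPKM it stayed at 2, but mir-320a took the place of mir-877. Over all 188 entries the count was 29, and 46 with DESeq2, 10 without the L number, 8 inside L7 and 34 inside L8. In WT liver against cortex it became 1 with total counts and with limma on log2(FPKM + 1), and in both tissue contrasts it ran from 1 to 2 with 1 library left out.

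In striatum the results that changed sign were mir-484 between WT lines (0.03 with total counts and with FPKM, 0.00 with no filter, 0.02 with at least 10 CPM in 7 libraries, 0.01 with no sex term) and mir-877 between WT lines (-0.37 without the L number). mir-484 between L8 and L7 gave 0.02 with no filter, 0.28 with total counts and 0.30 with FPKM. In cortex mir-320a gave 0.01 inside L1 in neo-deleted mice, and in neo-intact mice -0.03 with total counts, 0.00 with no filter, -0.04 with FPKM, -0.05 with only the compared groups and -0.07 inside L1. mir-877 without the L number gave -0.11 in neo-deleted mice, 0.37 in neo-intact mice, -0.48 for their difference and 0.00 between WT lines. mir-484 between L8 and L1 gave 0.15 with total counts and 0.17 with FPKM. In liver mir-484 in neo-deleted mice gave -0.22 inside L1, and mir-484 against cortex gave 0.61 with DESeq2 size factors and with DESeq2, called in both. With 1 library left out, cortical neo-intact changes ran from -0.04 to 0.11 for mir-320a and from -0.12 to 0.05 for mir-877, the liver neo-deleted change of mir-484 from -0.07 to 0.08, and mir-484 in liver against cortex from -0.13 to 0.01. The cause was not tested.

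Replicate numbers do not pair the animals: 11 of 47 same-numbered pairs of KI and WT libraries deviated together with r over 0.1. With the replicate number as a block, neo-deleted striatum gave -0.54 for mir-484 (adjusted p = 0.00018, edgeR) and 0.38 for mir-877 (adjusted p = 0.0263, edgeR), and 2 members were called as before; in neo-intact cortex mir-877 gave 0.03. With the animal as a block, WT liver against cortex gave -2.15 for mir-877 (adjusted p = 0.000144, limma); for striatum against cortex, with 1 animal in both, this could not be fitted. At a tolerance of 0.05, 26 libraries had a mir-320a estimate that was not whole. Liver libraries held 0 to 7 counts of mir-877, and each library of the series held 0 or 1 of mir-1224. The cause of these low counts was not tested.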

Other observations

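The only cortical library with L2, neo-intact WT M1, entered no comparison inside an L number. It had 740.3 CPM of mir-320a, 390.5 CPM of mir-484 and 179 CPM of mir-877, and 1 of the 5 counts of mir-1224.

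In striatum, counts of mir-320a per count of mir-484 overlapped between genotypes in the neo-deleted line, at 2.49 to 5.45 in KI and 2.34 to 3.95 in WT inside L7 and 1.04 to 1.57 in KI and 0.819 to 1.22 in WT inside L8. In the neo-intact line the ratio was 2.17 to 3.47 in KI and 2.32 to 3.97 in WT inside L7, and 0.985 to 1.25 in KI and 1.13 in the WT library inside L8. In neo-deleted cortex inside L8 it did not overlap, at 0.814 to 1.04 in KI and 1.14 to 1.52 in WT (n = 5 and 3), and inside L1 it did, at 1.17 to 2.43 in KI and 1.49 to 2.82 in WT (n = 3 and 5). In neo-intact cortex inside L1 it was 1.67 to 4.08 in KI and 2.095 to 2.86 in WT (n = 8 and 3). These ratios were chosen after their values were seen and carry no test.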
